A study of Danio rerio with 10 samples.

Results

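The normoxic zebrafish heart was described from the 5 arrays of hearts kept in normoxia, out of 10 arrays in the series; the other 5 came from hearts kept in hypoxia and entered only through a shared normalisation. The arrays were chosen by their titles, N1 to N5, and none by its values. N5 is a repeat array of the RNA of N2. N3 and N4 are labelled as separate biological samples, but they differed from each other by less than the repeat pair did. They shared a hybridization run, whereas N2 and N5 did not, so this closeness does not show that N3 and N4 are 1 sample. By choice, N3 and N4 were averaged and counted as 1 sample, called N3/4 here. This left 3 samples: N1, N2 (the mean of N2 and N5) and N3/4. Total RNA was labelled with biotin and read on the Affymetrix zebrafish array, which reports 1 intensity for each probe set, a group of short probes designed against 1 transcript. The sources used here do not give the fish's age, sex or strain, the oxygen level, or how many hearts went into a sample.

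The zebrafish heart has a single atrium, a single ventricle and an outflow tract, and its cardiomyocytes contract throughout life on energy made mostly in mitochondria. Sarcomere proteins carry out contraction, calcium pumps and channels time it, and oxygen reaches the mitochondria through haemoglobin in the nucleated red cells within the chambers and through myoglobin inside the muscle cells. A whole heart also holds endocardium and vessels, epicardium, fibroblasts and blood leukocytes. Liver, body wall muscle, gill and ovary lie close to the heart in this small fish, and their marker genes were followed as well.

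Heart marker genes were measured in part. Of 37 listed contractile genes 19 were measured, and these 19 were above the background bound of 27.0 intensity units on all 5 arrays, and their median stood at percentile 97.5 of the 8793 named genes. Of 22 listed cardiac hormone and transcription factor genes 17 were measured, and 11 were above the bound on all arrays. Of 28 listed calcium and conduction genes 9 were measured, and 7 were above it on all arrays. The genes for the cardiac transcription factors tbx5a, tbx20 and gata4 were not above it on any array. A probe set with no signal can also be one that binds poorly, and brightness depends on the probes as well as on the transcript, so ranks here order signals and not transcript numbers.

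The signal of the normoxic heart was shared by many transcripts. Of 15502 probe sets without the array's own controls, 53.4% were above the background bound on all 5 arrays and 32.3% on none. The 10 brightest probe sets carried 2.62% of the summed signal, the 100 brightest 18.2% and the 1000 brightest 59.0%. The median log2 intensity was 5.45, close to the bound of 4.75, and the brightest probe set was at 13.1. The 3 samples shared 82 of their 100 brightest probe sets, and each pair of samples shared 85 to 90. Arrays have no read depth, so their number limits the precision.

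**Figure D1:**
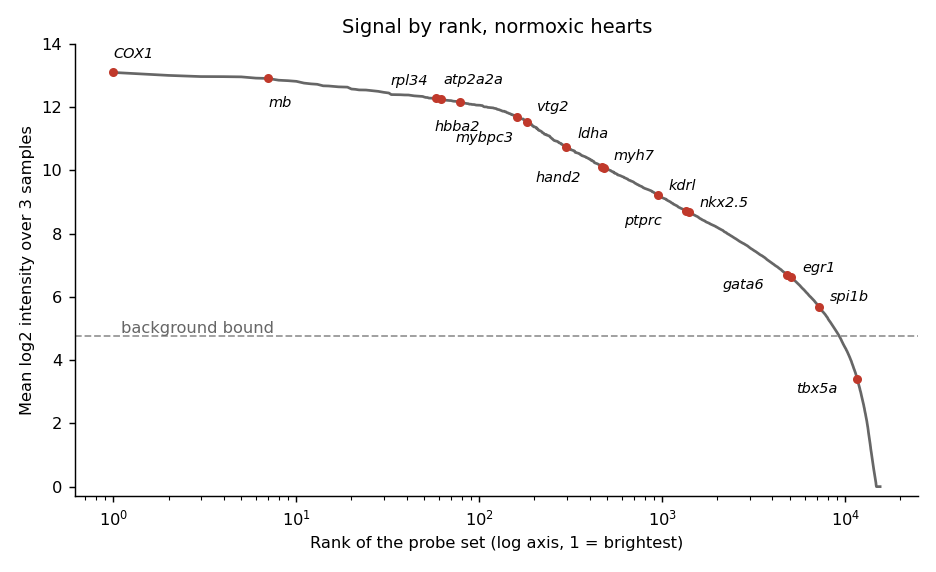
Mean log2 intensity over the 3 normoxia samples (vertical axis) against the rank of the probe set on a log axis (horizontal; 1 is the brightest of 15502), with named genes as red points and the background bound of 4.75 as a dashed line. COX1 leads at 13.1, the endothelial gene kdrl lies near rank 948, and tbx5a lies below the bound.

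The brightest genes belonged to mitochondria, glycolysis, oxygen binding, the sarcomere and the ribosome. COX1, the mitochondrially encoded catalytic subunit of cytochrome c oxidase, was the brightest named gene. It was followed by gapdh, a glycolytic enzyme, hbaa1, an adult alpha globin, actc1a, a cardiac actin, mb, which encodes myoglobin, and myl7, the myosin regulatory light chain of the zebrafish heart. COX1 was the top probe set on each array and so received the same normalised value of 8779.6 on all of them. Before normalisation it read 9979 on N1, 9519 on N2, 7476 on N5, 9342 on N3 and 8512 on N4.

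Myoglobin and the regulatory light chain were at nearly the same level in every sample. The intensity of mb was 7686 on N1, 7686 on N2, 7789 on N5, 7538 on N3 and 7789 on N4. That of myl7 was 7455 on N1, 7301 on N2, 7301 on N5, 7301 on N3 and 7155 on N4. For mb the spread between samples was no wider than that between N2 and its repeat N5. For myl7, N2 and N5 read alike and the samples ranged 1.03-fold. At these top ranks the normalisation itself leaves little room to differ.

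The 100 brightest named genes held 55 of the 72 measured genes of the cytosolic ribosome, led by rpsa, rps27a, rps2 and rps4x. They held 10 of 73 genes of oxidative phosphorylation, among them atp5mc3b, a subunit of the membrane ring of ATP synthase, and ndufa4a and cox4i1l. Contractile genes supplied 4 (actc1a, myl7, cmlc1 and tnnt2a), glycolysis supplied 4 (gapdh, aldoaa, ldhba and eno3), and fatty acid oxidation with the TCA cycle supplied 4 (idh2, mdh2, fabp3 and mdh1aa). Creatine kinase ckma, adenylate kinase ak1 and the phosphate carrier slc25a3b made up an energy transfer group of 3. The calcium pump of the sarcoplasmic reticulum, atp2a2a, and the ferritin gene fth1a, an iron store, were also among them. Of the 100, 88 stood on 1 of the 32 gene lists and 12 on none, among the latter si:dkey-238c7.12 at rank 15 of the genes, tmsb4x and actb2.

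Whole pathways, and not only single genes, sat near the top. All 72 measured ribosomal genes lay in the brightest 10% of genes, with a median at percentile 99.3 and the dimmest at 97.1. Of 73 oxidative phosphorylation genes 72 lay in the brightest 10%, with a median at percentile 97.5. Glycolysis had its median at percentile 97.2, and fatty acid oxidation with the TCA cycle at 95.1. The median of all genes is percentile 50 by construction.

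Cardiac muscle genes covered a wide span of signals. The essential light chain cmlc1 had an intensity of 6701 on N1, 6544 on N2, 6152 on N5 and 6606 on N3 and N4 alike. The gene for cardiac myosin binding protein, mybpc3, had 3362 on N1, 3353 on N2 and N5, 3256 on N3 and 3310.3 on N4. The ventricular myosin heavy chain gene, listed here under its current symbol myh7, was dimmer, with 1039 on N1, 1334 on N2, 1254 on N5, 1028 on N3 and 1011 on N4. The samples lay within 1.02-fold of each other for mybpc3, and N2 was the highest for myh7. The calsequestrin gene casq2, whose protein stores calcium in the sarcoplasmic reticulum, ranged from 1269.6 to 1358 over the 5 arrays.

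Among cardiac transcription factors, hand2 was the brightest, with an intensity of 1191 on N1, 964 on N2, 1049 on N5, 1079 on N3 and 1068 on N4. The gata5 gene had 677 on N1, 701 on N2, 737 on N5, 556 on N3 and 566 on N4. The nkx2.5 gene had 460.5 on N1, 428 on N2, 388 on N5, 379 on N3 and 364 on N4. Each of these regulators was thus measured well above the bound on every array, and the median of their list stood at percentile 68.2.

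Genes of the other cells of the heart were present at lower ranks. The endothelial list had its median at percentile 73.6, led by the water channel gene aqp8a.1, and 12 of its 14 measured genes were above the bound on all arrays. The vascular receptor gene kdrl had 582 on N1, 719 on N2, 659 on N5, 518 on N3 and 531 on N4. The leukocyte list had its median at percentile 83.8, led by b2m and the class II chaperone genes cd74a and cd74b. Of its 21 measured genes, 15 were above the bound on all arrays and 3 on none. The pan-leukocyte gene ptprc had 443 on N1, 499 on N2, 457 on N5, 358 on N3 and 361 on N4. Both kdrl and ptprc were thus measured in all 3 samples.

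Red cell genes spanned bright and dim signals, led by hbaa1, behind only COX1 and gapdh among named genes. Of 22 measured genes of the list, 9 lay in the brightest 10% and 4 were above the bound on no array, with a median at percentile 78.2. The beta globin hbba2 had 5014 on N1, 4136 on N2, 3954 on N5, 4839 on N3 and 4683 on N4, so the N2 pair was the lowest. The red cell genes cahz, prdx2, slc4a1a and alas2, the last an enzyme that begins haem synthesis, all lay above an intensity of 1120 on each array. The embryonic globin hbae3 was dim, between 28.4 and 133. The spread of hbae3 within N3/4 was wide, with 117 on N3 against 61.2 on N4.

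**Figure D2:**
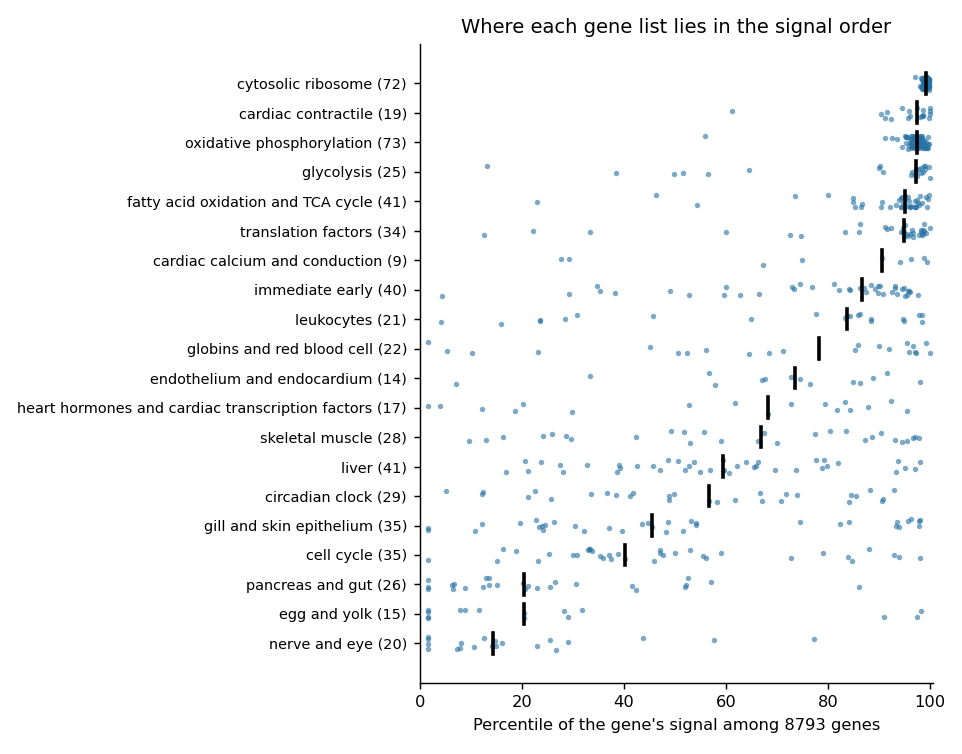
Each point is a gene, placed by the percentile of its signal among 8793 named genes (horizontal axis) in the row of its list; black bars are list medians, and the number of measured genes is in brackets. Ribosomal, contractile, mitochondrial and glycolytic lists have medians above percentile 95, whereas the nerve and eye list has its median at 14.4.

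Lists of other tissues spread over a wide range of ranks. The skeletal muscle list had its median at percentile 66.9 with 7 of 28 genes in the brightest 10%, the liver list at 59.4 with 5 of 41, and the gill and skin list at 45.5 with 8 of 35. The nerve and eye, pancreas and gut, and egg and yolk lists had medians at percentiles 14.4, 20.5 and 20.4. Of 20 nerve and eye genes 15 were above the bound on no array, and of 26 pancreas and gut genes 15 were above it on none. The pancreatic chymotrypsinogen gene ctrb.1 was the brightest of the latter, with 437 on N1, 251 on N2, 256 on N5, 391 on N3 and 419.8 on N4. Of 15 egg and yolk genes 10 were above the bound on no array, and the germ cell gene ddx4 and the oocyte gene bmp15 were among those 10. The 3 measured vitellogenin genes, which encode yolk precursors that the liver makes in egg-laying females, were bright in N2 and N3/4. In N1 they were dimmer, at rank 950 of all probe sets for vtg2, 1702 for vtg4 and 6296 for vtg3.

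The closest pairs of arrays were N3 with N4 and N2 with N5. The SD of log2 differences, taken over the 2273 probe sets whose log2 intensity averaged 8 or more, was 0.148 between N2 and its repeat N5 and 0.0912 between N3 and N4, which are labelled as separate samples and had the smallest spread of all 10 pairs. It was 0.390 between N1 and N2, which shared a hybridization run, and 0.304 to 0.312 between either N2 or N5 and either N3 or N4. The pairs of N1 with N3 and N4 were the farthest apart, at 0.460 and 0.463. Array N5 was hybridized in another run and its wash record ends in an abort, yet it stood as close to N2 as the value above shows. N3 and N4 were hybridized together in a run of their own among the normoxia arrays, so what is particular to this sample and what is particular to that run cannot be told apart.

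**Figure D3:**
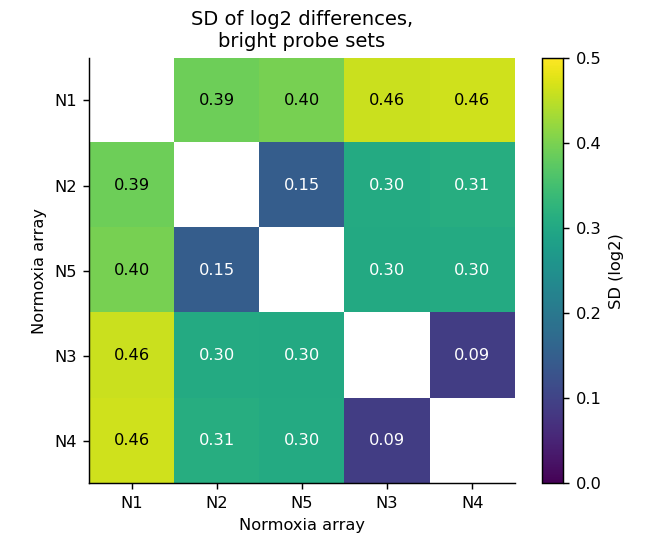
Standard deviation of log2 differences over 2273 bright probe sets for each pair of the 5 normoxia arrays (colour and number, log2 units). The pairs N2 with N5 and N3 with N4 are the closest, at 0.15 and 0.09, and the pairs that hold N1 are the farthest apart.

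Of 10851 probe sets above the filter on low signal, 1549 (14.3%) differed between the 3 samples in limma's moderated F-test at a Benjamini-Hochberg adjusted p under 0.05, and 3504 had an unadjusted p under 0.05. The error in this test is the spread between N2 and N5, hybridized in different runs, and between N3 and N4, hybridized in 1 run. Because N3 and N4 were joined for being so alike, and are not known to be repeat arrays, this error is small by that choice, and the calls do not measure the spread between fish. Between pairs of samples, N1 differed from N2 in 477 probe sets (4.4%; 1.86% higher and 2.53% lower in N1). N1 differed from N3/4 in 838 (7.72%; 3.13% higher and 4.59% lower in N1). N2 differed from N3/4 in 1683 (15.5%; 8.01% higher and 7.5% lower in N2). N1 is a single array and its contrasts have the larger errors, so these 3 counts do not order the distances. The number called rested on the close pair N3 and N4: it was 540 without N3 and 450 without N4, which leave N2 and N5 as the only pair, and 534 with N3 and N4 as separate samples. The 3 pairwise counts without N3 were 266, 405 and 417, in the order given above, and without N4 they were 243, 353 and 314. Without N2 the N1 and N3/4 contrast gave 1313, and without N5 it gave 1334.

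The brightest genes varied by small factors. The median range between samples over the 100 brightest named genes was 0.10 on the log2 scale, and it was below 0.5 for 99 of them. Of these 100 genes 14 were called, near the 14.8% of all named genes tested (1006 of 6788). Among the 500 brightest named genes, the 10 with the smallest range included COX1, mb, the ribosomal genes rpl7, rpl9, rpl34, rpl35 and rps7, and pygmb, a muscle glycogen phosphorylase gene. COX1 was the top probe set on each array, so the normalisation set its range to 0. At other top ranks the normalisation also leaves little room to differ. The gene cox7a2l had 1967 on N1, 1975 on N2, 1958 on N5, 1942 on N3 and 2004 on N4, a range between samples of under 0.01 on the log2 scale. For rpl34 the arrays N3 and N4 read 4458 and 5234, wider apart than the 3 sample means, so a small range between samples does not mean that arrays were alike.

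A smaller set of transcripts varied by large factors, mostly in 1 pattern. Counting values below the background bound at the bound, 459 called probe sets differed at least 2-fold between the highest and the lowest sample, 138 at least 4-fold and 59 at least 8-fold. Of the 59, 54 were lowest in N1 and 54 were highest in N3/4. Of the 138, 112 were lowest in N1, 116 were highest in N3/4, 14 were highest in N2 and 8 were highest in N1. The 138 probe sets held 105 genes named by a single symbol. Of these, 26 stood on the liver list, 14 on the skeletal muscle list and 3 on the egg and yolk list. Those lists hold 41, 28 and 15 of the 8793 named genes. Another 50 of the 105 stood on no list of the 32.

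**Figure D4:**
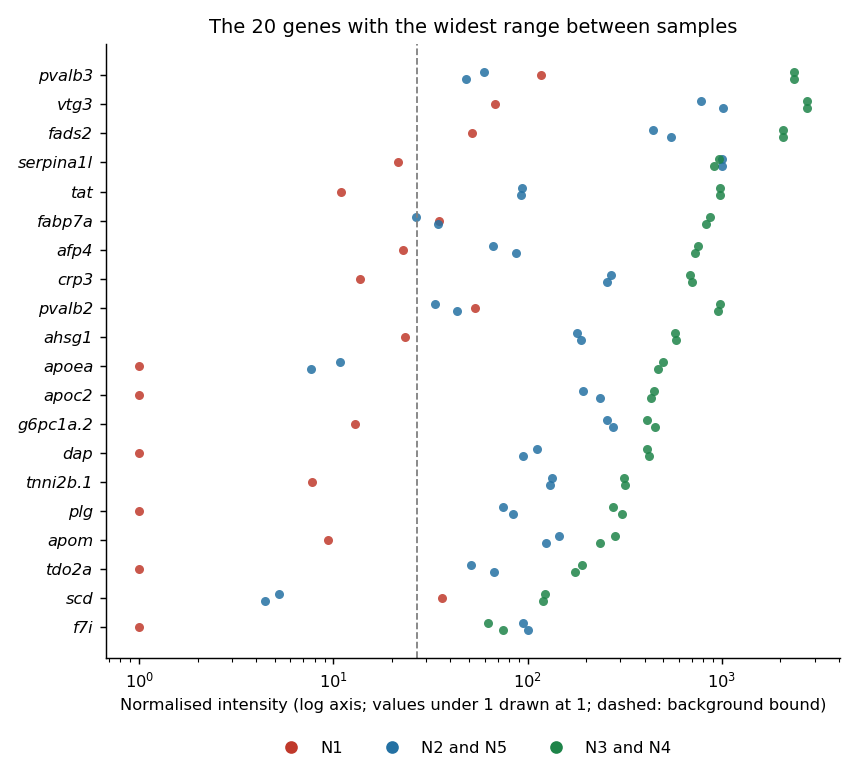
Normalised intensity on a log axis (horizontal) of the 20 genes with the widest range between samples among those called, one row per gene, with red for N1, blue for N2 and N5 and green for N3 and N4; values under 1 are drawn at 1 and the dashed line is the background bound of 27.0. N1 is the lowest in 16 rows and N3/4 the highest in 18.

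Liver genes differed widely between samples. Of the 38 tested genes of the liver list 35 were called (92.1%), against 14.8% of all named genes tested. This list, like the others, was chosen with earlier results of these data known, so such shares are a description. Relative to N2, N1 was higher for 1 gene and lower for 28 (76.3%, against 4.33% of all named genes tested). Relative to N3/4, N1 was higher for 1 and lower for 33 (89.5%, against 8.63%). N2 against N3/4 was higher for 5 and lower for 23 (73.7%, against 15.8%). The mean log2 intensity of the 41 measured genes, with values below the bound set to it, was 5.64 on N1, 7.24 on N2, 7.23 on N5, 7.86 on N3 and 7.86 on N4. In bulk tissue, fewer cells of a type and less RNA per cell cannot be told apart. Without N1 the list's range between samples on the unbounded log2 scale was 0.70, against 3.10 with it. Leaving out N1 removes a whole sample, so this range could not have risen. The unbounded list means were 4.74 in N1, 7.15 in N2 and 7.85 in N3/4, so N1 lay farthest from the rest.

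The liver genes included carriers of lipid and of blood proteins. The apolipoprotein gene apoa2 had 175 on N1, 2108 on N2, 2036 on N5, 2903 on N3 and 2955 on N4, a range of 16.7-fold (adjusted p = 4.36e-06). The liver fatty acid binding protein gene fabp10a had 145 on N1, 1340.0 on N2, 1512 on N5, 1893 on N3 and 1897 on N4 (adjusted p = 1.43e-05). In both genes N1 stood far below the other 4 arrays. The protease inhibitor gene serpina1l had 21.5 on N1, under the bound, against 999.7, 1003, 963 and 906 on N2, N5, N3 and N4, a range of at least 37-fold (adjusted p = 4.36e-06). Without N1 the call for serpina1l was lost.

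Other liver genes separated N3/4 from both other samples. The tyrosine-degrading enzyme gene tat had 11 on N1, 93.6 on N2, 92.0 on N5, 978 on N3 and 982 on N4, a range of at least 36.3-fold (adjusted p = 8.11e-06). The lipoprotein gene apoea had -1.01 on N1, 10.9 on N2, 7.70 on N5, 498 on N3 and 470.4 on N4, so it was above the bound in N3/4 alone, by at least 17.9-fold. The retinol carrier gene rbp4 had 1840.3 on N1, 1696 on N2, 1737 on N5, 3997 on N3 and 4071 on N4. For rbp4, the difference between N1 and N2 did not pass the threshold (log2 difference N1 minus N2 of 0.10, SE 0.05, adjusted p = 0.32), and N3/4 was 2.35-fold above N2.

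The order was not the same in every liver gene. The transferrin gene tfa, whose product carries iron in blood, had 651 on N1, 2651 on N2, 2811 on N5, 2373 on N3 and 2329 on N4, so it was highest in N2. The apolipoprotein B gene apobb.1 had 52.0 on N1, 594 on N2, 586 on N5, 299.7 on N3 and 303 on N4. The acute phase gene saa was highest in N1, with 203 on N1, 36.7 on N2, 33.5 on N5, 60.4 on N3 and 56.9 on N4 (adjusted p = 0.0014). Of the 35 called liver genes, 24 were called under each of the 15 alternative settings that tested them, including tfa, apobb.1 and saa.

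Yolk precursor genes followed the liver pattern. The vitellogenin gene vtg2 had 603 on N1, 5208 on N2, 5145 on N5 and 8412 on both N3 and N4, and it ranked 950 of all probe sets in N1, 50 in N2 and 2 in N3/4. The gene vtg4 had 346 on N1, 3390.3 on N2, 3119.5 on N5, 5306 on N3 and 5375 on N4, a range of 15.4-fold (adjusted p = 8.11e-06). The gene vtg3 had 68.2 on N1, 779 on N2, 1015 on N5, 2746 on N3 and 2746 on N4, a range of 40.2-fold (adjusted p = 3.32e-05). All 3 were lowest in N1 and highest in N3/4, and each was called under all 15 alternatives. The oocyte gene zar1, by contrast, stayed between 21.8 and 30.1 on the 5 arrays.

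Fast muscle genes varied in the same direction. Of 25 tested skeletal muscle genes 18 were called (72.0%, against 14.8% of all named genes tested), and their list mean, with values below the bound set to it, was 6.46 on N1, 7.33 on N2, 7.36 on N5, 8.03 on N3 and 8.04 on N4. N1 was lower than N3/4 for 15 genes and higher for 1 (64.0%, against 8.63% of all named genes tested). The regulatory light chain gene of fast muscle, mylpfa, had 441 on N1, 2163 on N2, 2315 on N5, 3083 on N3 and 3137 on N4, a range of 7.06-fold (adjusted p = 1.32e-05). A second probe set of mylpfa had 294 on N1 and 1179.7 to 1705 on the other arrays. Both probe sets of mylpfa placed N1 lowest and N3/4 highest. Without N1 the list's range on the unbounded log2 scale was 0.75, against 1.93 with it. Here too a whole sample was removed, so the range could not have risen.

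Parvalbumins, the calcium buffers of fast muscle, showed a different split. The gene pvalb3 had 118 on N1, 59.3 on N2, 48.4 on N5, 2339.8 on N3 and 2349 on N4, a range of 43.8-fold (adjusted p = 1.15e-05). The gene pvalb2 had 53.3 on N1, 33.4 on N2, 43.5 on N5, 974 on N3 and 958 on N4 (adjusted p = 3.32e-05). In both, N3/4 stood apart and N1 was not the lowest. In contrast, the essential light chain gene mylz3 had 255 on N1 and 1585, 1609, 1750.1 and 1730.2 on N2, N5, N3 and N4, so that N1 stood apart. The call for mylz3 was lost without N1.

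Not all muscle genes took part. The skeletal actin gene acta1a was lowest in N3/4, with 1696 on N1, 1987 on N2, 2053 on N5, 1207 on N3 and 1233 on N4. The slow myosin gene smyhc1 was highest in N2, with 49.1 on N1, 105 on N2, 109 on N5, 72.1 on N3 and 70.7 on N4. The muscle regulator myod1 read 15.7 to 33.4 on the 5 arrays, around the bound. The call for smyhc1 was lost without N4 and with N3 and N4 as separate samples.

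The contractile genes of the heart itself had list means that were close together. Their mean log2 intensity was 10.72 on N1, 10.73 on N2, 10.73 on N5, 10.75 on N3 and 10.77 on N4, and 5 of 19 were called (26.3%, against 14.8% of all named genes tested). One of the 5, the tropomyosin gene tpm1, had 226 on N1, 684 on N2, 813 on N5, 1156 on N3 and 1188 on N4, a range of 5.19-fold (adjusted p = 0.00023). The tropomyosin that tpm1 encodes is also made in skeletal muscle, and it was the only called gene of the list with a range above 2-fold. The alpha-actinin gene actn2b had 3256 on N1, 2117 on N2, 2081 on N5, 2733 on N3 and 2760.1 on N4 (adjusted p = 0.0012), lowest in N2. The range of the contractile list mean between samples was 0.042 on the log2 scale; it was 0.10 after median scaling and 0.23 in the deposited values, and, relative to all genes, the lowest sample was N1 or N2 depending on the scaling. Markers of liver, yolk and fast muscle moved with the sample, and their part in the other differences between samples was not tested.

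**Figure D5:**
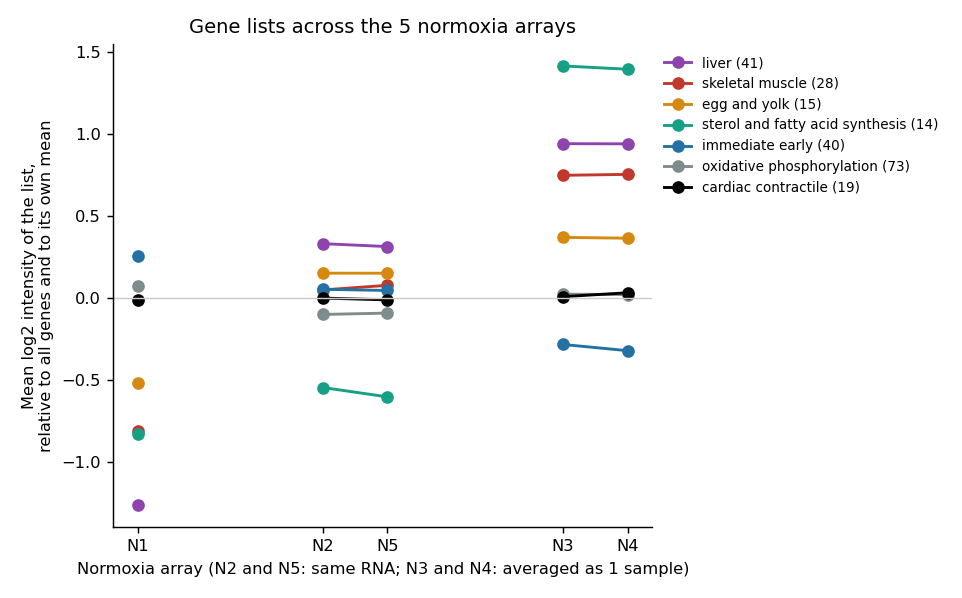
Mean log2 intensity of 7 gene lists on each normoxia array (vertical axis), relative to all genes and to the list's own mean over the 3 samples; lines join arrays counted as 1 sample, and brackets give the genes measured; the sterol and fatty acid synthesis list was chosen after its values were seen. Liver, skeletal muscle and yolk lists are lowest in N1 and highest in N3 and N4, immediate early genes run the other way, and the contractile list stays near 0.

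Genes of oxidative phosphorylation varied mildly between samples. Of 73 oxidative phosphorylation genes 19 were called (26.0%, against 14.8% of all named genes tested). Of the 19, 17 were lowest in N2, as were 282 of all 1006 called named genes. The list mean was 10.95 on N1, 10.78 on N2, 10.79 on N5, 10.91 on N3 and 10.91 on N4, and N2 stayed the lowest, relative to the median of all genes, under each of the 5 other scalings and floors tried. The complex I gene ndufv1 had 1416 on N1, 1066 on N2, 1086 on N5, 1475 on N3 and 1495 on N4 (adjusted p = 0.0032). The complex II gene sdhdb had 739 on N1, 555 on N2, 528 on N5, 762 on N3 and 771 on N4 (adjusted p = 0.0054). The 19 called genes ranged at most 1.42-fold between samples, and 0 of the 19 calls held under all 15 alternatives. For the ribosomal list, 8 of 72 were called, and the sample with the highest list mean relative to all genes was N2 here but N3/4 in the deposited values and after median scaling, so no direction is given.

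Among called energy metabolism genes the widest ranges were those of ldhbb, slc25a4 and ckmb, and ldhbb and ckmb were each dimmer than a close relative. The second muscle creatine kinase gene, ckmb, had 663 on N1, 1659 on N2, 1449 on N5, 2090.0 on N3 and 2108 on N4 (adjusted p = 0.00041), whereas ckma had 4808 on N1, 4241 on N2, 4536 on N5 and 4808 on N3 and N4. The lactate dehydrogenase gene ldhbb had 44.2 on N1, 97.1 on N2, 99.5 on N5, 366 on N3 and 371 on N4 (adjusted p = 5.63e-05), whereas ldhba had 4279 on N1, 3762 on N2, 3866 on N5, 4289 on N3 and 4241 on N4. Thus ckma ranged 1.1-fold and ckmb 3.17-fold, and ldhba ranged 1.12-fold and ldhbb 8.34-fold. The adenine nucleotide carrier gene slc25a4 varied by 3.96-fold (adjusted p = 0.00032).

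Immediate early genes, which are transcribed soon after a stimulus without new protein synthesis, ran opposite to the liver list. Of 39 tested genes 29 were called (74.4%, against 14.8% of all named genes tested). Of these 29, 18 were highest in N1, 11 in N2 and 0 in N3/4, and 26 were lowest in N3/4. Among all 1006 called named genes, 270 were highest in N1, 285 in N2 and 451 in N3/4, and 394 were lowest in N3/4. The list mean was 8.37 on N1, 8.17 on N2, 8.17 on N5, 7.84 on N3 and 7.81 on N4. The AP-1 gene fosab had 566 on N1, 197 on N2, 212 on N5, 276 on N3 and 264 on N4 (adjusted p = 0.00081), and its 4 probe sets were all highest in N1, 3 of them called. The matricellular gene ccn1 had 805 on N1, 1070.0 on N2, 1029 on N5, 456 on N3 and 438 on N4 (adjusted p = 0.00017). The nuclear receptor gene nr4a1 had 533 on N1, 650.2 on N2, 635 on N5, 330.0 on N3 and 329 on N4 (adjusted p = 0.00052). Genes of this list thus split between those highest in N1 (fosab, socs3b, cebpb) and those highest in N2 (ccn1, nr4a1, atf3), with N3/4 the lowest for most. Calls held under each of the 15 alternatives that tested them for 6 of the 29 (fosab, ccn1, nr4a1, atf3, cebpb and klf2b). The call for socs3b was lost without N1.

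Some immune and granulin genes were highest in N1. The granulin gene grna.1 had 2131 on N1, 462 on N2, 468 on N5, 899.7 on N3 and 895 on N4, a range of 4.58-fold (adjusted p = 2.27e-05). The macrophage receptor gene marco had 547 on N1, 438 on N2, 425 on N5 and 315 on both N3 and N4 (adjusted p = 0.0030). The immunoproteasome gene psmb13a had 160.2 on N1, 142 on N2, 149 on N5, 79.1 on N3 and 72.0 on N4 (adjusted p = 0.0045). Of 19 tested leukocyte genes 8 were called (42.1%, against 14.8% of all named genes tested). Of these 8, 4 were highest in N1, 3 in N2 and 1 in N3/4. Among all 1006 called named genes these counts were 270, 285 and 451. Relative to N2, N1 was higher for 1 leukocyte gene and lower for 1 (10.5%, against 4.33% of all named genes tested), so the list as a whole was not highest in N1. N1 was higher than N3/4 for 5 of the 19 and lower for 0 (26.3%, against 8.63% of all named genes tested). N2 was higher than N3/4 for 6 and lower for 3 (47.4%, against 15.8%). The defining neutrophil gene mpx was above the bound on N1 alone, at 32.9.

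Of 29 tested gill and skin genes 13 were called (44.8%, against 14.8% of all named genes tested). Of these 13, 12 were highest in N3/4, as were 451 of all 1006 called named genes. Of all 35 measured, 25 were highest in N3/4, 6 in N1 and 4 in N2. Over all 8793 named genes these counts were 2664, 3416 and 2713. The basal keratin gene krt5 had 97.9 on N1, 291 on N2, 279.9 on N5, 779 on N3 and 774 on N4, a range of 7.94-fold (adjusted p = 2.13e-05). The keratin gene krt4 had 591 on N1, 599 on N2, 641 on N5 and 1061 on both N3 and N4 (adjusted p = 0.00096). The epithelial adhesion gene epcam had 52.9 on N1, 34.1 on N2, 49.1 on N5, 103 on N3 and 94.9 on N4. The exception was the keratin gene krt8, which was highest in N1 at 2585 and lowest in N3/4 at 2016 and 2090.0. The calls for epcam and krt8 were both lost without N3 or N4, and that for krt8 also without N1.

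The lipid synthesis genes fads2 and scd were highest in N3/4. The desaturase gene fads2, which makes polyunsaturated fatty acids, had 51.4 on N1, 445 on N2, 545 on N5, 2053 on N3 and 2064 on N4, a range of 40.0-fold (adjusted p = 1.63e-05). The desaturase gene scd had 36.2 on N1, 5.24 on N2, 4.42 on N5, 123 on N3 and 119.7 on N4, a range of at least 4.49-fold (adjusted p = 0.00046). Both were named by rule for their wide range between samples, so they do not stand for lipid synthesis genes as a set. The call for fads2 held under all 15 alternatives, and that for scd under each alternative that tested it. The filter that left out the lowest 50% of probe sets did not test scd. In scd the lowest sample was N2, unlike in fads2.

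Few cell cycle genes were called. Of 31 tested cell cycle genes 1 was called (3.23%), below the 14.8% over all named genes, and 4 of 24 clock genes were called (16.7%), near it. The cell cycle list had its median at percentile 40.3. Of its 35 measured genes, 20 were above the bound on all arrays and 6 on none, against 5413 and 2188 of all 8793 named genes. A low share called does not show that these genes were steady between samples. The clock-linked repressor gene nfil3-5 had 387 on N1, 369.6 on N2, 358 on N5, 211 on N3 and 217 on N4 (adjusted p = 0.0018). The light-induced clock gene per2 ranged from 281 to 389 over the 5 arrays. The chaperone gene hspa5, which serves protein folding in the endoplasmic reticulum, had 444 on N1, 518 on N2, 480.3 on N5, 996 on N3 and 990.2 on N4 (adjusted p = 0.00037), so N3/4 stood apart.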

How the data were processed

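Each array's deposited values are intensities on a linear scale, 1 for every probe set, of which 8.32 to 10.0% per normoxia array lay at or below 0. The sources used here do not name the software behind them. Per the file headers, the deposited array records hold another unit, text on chip type, fluidics and hybridization, and were used only to find shared runs. The 115 control probe sets were left out. Values were quantile normalized over all 10 arrays, those under 1 were set to 1, and log2 was taken. The background bound is 2 times the background SD of 13.5 estimated from negative values.

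Arrays were modelled in limma 3.58.1 under R 4.3.3 with 3 samples and 2 residual degrees of freedom, an intensity trend, and Benjamini-Hochberg adjustment over the 10851 probe sets left after the lowest 30% by mean were dropped. N3 and N4 are labelled as separate samples; nothing in the labels says which hearts each came from, and the adjusted p-values measure only the spread between arrays counted as 1 sample. The fit was tested on simulated data.

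Of 15502 probe sets, 10795 have 1 symbol, 135 several and 4572 are unlisted in the platform annotation; 10711 were renamed through Entrez IDs in RefSeq's gene table for assembly GRCz12tu. A gene is represented by its brightest probe set. The ventricular myosin gene vmhc appears as myh7. Named genes are the 25 brightest, the 20 with the widest range among those called, the 10 with the smallest range among the 500 brightest, the 3 brightest and the 2 widest called per list and a panel of 19, of which 13 were measured; genes named beyond these were chosen after their values were seen. The members and the 32 lists were chosen with earlier results of these data known. Python 3.11.15, pandas 2.3.3 and matplotlib 3.10.9 handled names and figures. Alternatives were other scalings, floors and filters, no intensity trend, samples as labelled, and each array left out. Sequences and promoter motifs were not analysed here.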

Additional observations from a re-analysis of the deposited data

How the results depend on the processing

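The count of probe sets differing between samples was 1549 by the main settings. It was 3850 in the deposited values, 937 with values set to the background bound, 712 with no filter, 405 with no intensity trend, 534 with 4 samples as labelled and 495 at an adjusted p under 0.01; leaving out 1 array gave 450 to 2069. Of the 534, 501 were among the main calls, as were 673 of the 937. For N1 against N2, 477 became 764 (deposited), 315 (median scaling), 151 (no trend), 278 (as labelled) and 199 (adjusted p under 0.01), with 243 to 708 on leaving out 1 array. For N1 against N3/4, 838 became 3352 (deposited), 533 (no filter), 383 (no trend) and 367 (adjusted p under 0.01), with 353 to 1334. For N2 against N3/4, 1683 became 2595 (deposited), 863 (bound), 561 (no filter), 334 (no trend) and 472 (adjusted p under 0.01), with 314 to 1989. The cause of these changes was not tested. The range of list means between samples (log2) in the deposited values was 0.91 for immediate early genes against 0.55, 0.23 for contractile genes against 0.042, 0.20 for ribosomal genes against 0.073 and 0.36 for oxidative phosphorylation against 0.17; contractile genes gave 0.10 after median scaling. The deposited values moved the median of all genes by 0.34 between samples; with it subtracted, the ranges there were 0.58 for immediate early, 0.14 for contractile, 0.13 for ribosomal and 0.23 for oxidative phosphorylation genes. Leaving out 1 array gave 0.70 to 3.10 for liver, 0.75 to 1.98 for skeletal muscle and 0.41 to 1.43 for egg and yolk genes. The lowest value came each time without N1. Leaving out N1 removes a whole sample, so the range could not have risen, whereas leaving out any other array keeps all 3 samples. Over the alternatives run on them, the signal share of the 100 brightest probe sets was 17.8 to 18.3%, and the 100 brightest genes held 54 to 56 ribosomal, 9 to 12 oxidative phosphorylation, 4 to 5 glycolytic and 4 contractile genes. Of 99 called genes chosen by rule, 39 were called under each of the 15 alternatives that tested them. Dim genes among them were not tested under the stricter filter. No paired analysis was possible because no contrast with the hypoxia arrays was made, and promoter motifs were not run. Signals near the background bound limit what can be said of the dimmer transcripts.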

Other observations

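Genes of sterol synthesis were gathered after their values had been seen, together with those of fatty acid synthesis, so their count is a description and no support for anything. Of 14 measured genes 13 were called (92.9%, against 14.8% of all named genes tested). All 14 were highest in N3/4, as were 2664 of all 8793 named genes. N1 and N2 differed in 2 (14.3%, against 4.33% of all named genes tested). The mean log2 intensity of the group, with values below the bound set to it, was 5.78 on N1, 6.06 on N2, 6.01 on N5, 8.03 on N3 and 8.01 on N4. The gene hmgcs1, which makes the precursor of mevalonate, had 58.7 on N1, 73.6 on N2, 99.6 on N5, 889 on N3 and 847 on N4, a range of 14.8-fold (adjusted p = 0.00011). The sterol methyl oxidase gene msmo1 had 55.7 on N1, 64.1 on N2, 52.9 on N5, 751 on N3 and 716 on N4, a range of 13.2-fold (adjusted p = 3.69e-05). The farnesyl diphosphate synthase gene fdps had 135 on N1, 114 on N2, 92.1 on N5, 679.9 on N3 and 661 on N4. In these 3 genes N3/4 stood far above the other 3 arrays. The brightest probe set of cyp51 read 31.5 to 48.5 on the 5 arrays and was not called, whereas another of its probe sets had 35.8 on N1, 20.2 on N2, 5.15 on N5, 180 on N3 and 181 on N4, so the probe sets of this gene disagree.

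Among genes on none of the lists, fabp7a, a fatty acid binding protein gene, had 34.9 on N1, 26.6 on N2, 34.6 on N5, 869 on N3 and 833 on N4 (adjusted p = 3.32e-05). The gene dap had -3.25 on N1, 111 on N2, 94.9 on N5, 413 on N3 and 421 on N4, a range of at least 15.5-fold. The glucose-6-phosphatase gene g6pc1a.2 had 12.9 on N1, 256 on N2, 275 on N5, 410.1 on N3 and 451 on N4, and the fetuin gene ahsg1 had 23.3 on N1, 179.5 on N2, 189 on N5, 571 on N3 and 579.6 on N4. All 4 were highest in N3/4; fabp7a was lowest in N2 and the other 3 in N1.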
